A study of Mus musculus with 6 samples.

Results

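Glucocorticoid signalling and the Gas6-Axl pathway were followed through 9 genes: Nr3c1, which encodes the glucocorticoid receptor, 5 genes known to respond to it (Fkbp5, Tsc22d3, Sgk1, Zbtb16 and Klf9), and the ligand Gas6 with its receptors Axl and Mertk. They were picked by gene name, and each of the 9 matched 1 entry among the 56941 genes of the count table. These genes, and the lists set beside them below, were chosen with earlier results of these data known. Total RNA was sequenced from hair follicle stem cells (HFSCs) sorted as CD34+/α6-integrin+ from the dorsal skin of female mice at postnatal day (PD) 68, with 3 biological replicates labelled WT (K14CreER-/- Dab2fl/fl) and 3 labelled Dab2-cKO (K14CreER+/- Dab2fl/fl). The mice carried the strain label B6;129S4-Dab2tm1Cpr/J, both genotypes had floxed Dab2 alleles, and both received tamoxifen at 75 mg/kg per day for 5 days. K14CreER places an inducible Cre under the keratin 14 promoter, which is active in basal epidermal and outer follicle keratinocytes and not in fibroblasts or macrophages. The number of animals behind each library is not given in the sources used here, so p-values measure the spread between libraries.

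Glucocorticoids enter cells and bind the receptor, which is held in the cytoplasm by a complex of heat shock protein 90 and its co-chaperones. The bound receptor moves to the nucleus and switches genes on at palindromic glucocorticoid response elements, while Hsd11b1 makes and Hsd11b2 destroys the active hormone inside the cell. Systemic corticosterone is a known brake on HFSC activation, and Gas6 is known as a dermal papilla factor that relieves it through Axl. Gas6 and protein S (Pros1) are vitamin K-dependent ligands of the TAM receptor tyrosine kinases Tyro3, Axl and Mertk, which also clear dying cells in macrophages and damp inflammatory signalling.

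The response element was looked for in the mouse genome (GRCm39) around the annotated start of each gene, as the letters GAACANNNTGTTC, which read the same on both strands. Of 19491 protein-coding genes tested, 243 (1.247%) held it within 5000 bases of the start site on either side, and Sgk1 was the single member among them. Within 50000 bases on either side, 2271 genes (11.65%) held it, with Fkbp5, Sgk1 and Mertk as the 3 members. The 3 sites, the matches of the members in the wider window, are shown 5′ to 3′ on the strand of the gene. The palindrome and its spacer are in capitals, with 8 flanking bases on each side:
Sgk1, chr10:21869593-21869621, plus strand: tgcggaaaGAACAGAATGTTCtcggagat
Fkbp5, chr17:28661386-28661414, minus strand: ttgtttgaGAACAGCTTGTTCtaggcttt
Mertk, chr2:128588633-128588661, plus strand: cctcaaggGAACATCTTGTTCctcagagc

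The Sgk1 site lay at base -958 relative to the start of the canonical transcript and inside an intron of longer Sgk1 transcripts. The Fkbp5 and Mertk sites lay in introns of their own genes, 43752 and 47862 bases after the start. In the window from 250 bases before to 50 bases after the start, the full element was in 8 genes (0.04104%) and in no member. The half-site AGAACA, searched on both strands, was in that window of 3100 genes (15.9%) and again in no member. A match of letters says nothing about binding, and receptor binding was not measured here. Full elements that depart from these letters were not searched for, so a gene without a match may still hold one.

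Between 7040032 and 9518564 counts were assigned per WT library and between 9374373 and 11696457 per Dab2-cKO library. Dab2 itself did not follow the labels: its counts were 304, 368 and 362 in WT and 1504, 1130 and 1259 in Dab2-cKO, a log2 fold change of 2.08 (SE 0.08, adjusted p = 3.04e-34, quasi-likelihood test of edgeR, Benjamini-Hochberg adjusted). The count takes in every exon, floxed or not. The libraries are named below as labelled, with every direction resting on those labels. By qPCR the paper reports less Dab2 mRNA in Dab2-cKO epidermis. At PD68 it reports less CD34 and K15 (Krt15) staining and more Sox9+ and NFATc1+ cells in the Dab2-cKO bulge. Here, Cd34 and Krt15 RNA was higher in Dab2-cKO (log2 fold changes 1.80 and 0.84) and Sox9 RNA lower (-1.45), opposite to that staining. Nfatc1 RNA was also higher (1.32), in the direction of the staining. Whether the groups were exchanged was not tested. Of the sort markers, Cd34 rose from 510 ± 53.2 to 1780 ± 35.6 normalized counts (SD, n = 3) and Itga6 from 960 ± 41.5 to 1409 ± 47.8. Of the 13 bulge genes listed, 7 were higher and 5 lower in the libraries labelled Dab2-cKO (5 and 6 when scaled by library totals alone), and all 13 lay above the background described with the levels per length. Markers of other skin cells also differed between the labels. All 10 fibroblast genes, all 12 macrophage and Langerhans cell genes, all 8 endothelial and all 7 skeletal muscle genes were higher in Dab2-cKO, as were 6 of 7 adipocyte and 10 of 12 dissociation stress genes. Of the endothelial genes, 6 lay above that background in WT and 8 in Dab2-cKO. All 12 inner root sheath and matrix genes and 6 of 7 melanocyte genes were lower, with Tchh at 162270 normalized counts in WT and 1517 in Dab2-cKO. The summed normalized count of the inner root sheath and matrix list was 227797 to 273588 in WT and 3277 to 3332 in Dab2-cKO. The paper reports both genotypes in telogen, the resting phase of the hair cycle, at PD68. The part of hair cycle stage in the differences between the labels was not tested. Across all genes, 9069 of 32149 tested passed an adjusted p of 0.05 (28.2%), 5387 of them higher (16.8%) and 3682 lower (11.5%) in the libraries labelled Dab2-cKO.

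All 9 members were called higher in the libraries labelled Dab2-cKO, against 16.8% of all genes tested, although library totals as the only scaling turned Sgk1 and Mertk below 0. The genes tested include many with fewer counts than the members. When only genes with a mean count of at least 50 were kept, 4461 of 14801 were called higher, and 7 of the 9 members. Their median log2 fold change was 1.17, where that of all tested genes was -0.02, and the members ranged from 0.21 for Sgk1 to 2.38 for Gas6. For each of the 9 genes, the 3 Dab2-cKO libraries lay above the 3 WT libraries in normalized counts (count over effective library size, brought to the mean library), which 38.3% of all genes tested did in either direction. An exact two-sided permutation test of 3 against 3 libraries cannot give less than p = 0.1, and each member reached that value. The summed normalized count of the 9 genes was 4453 to 4908 in WT and 12109 to 12246 in Dab2-cKO. In bulk RNA, more cells of a type and more RNA per cell cannot be told apart.

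**Figure D1:**
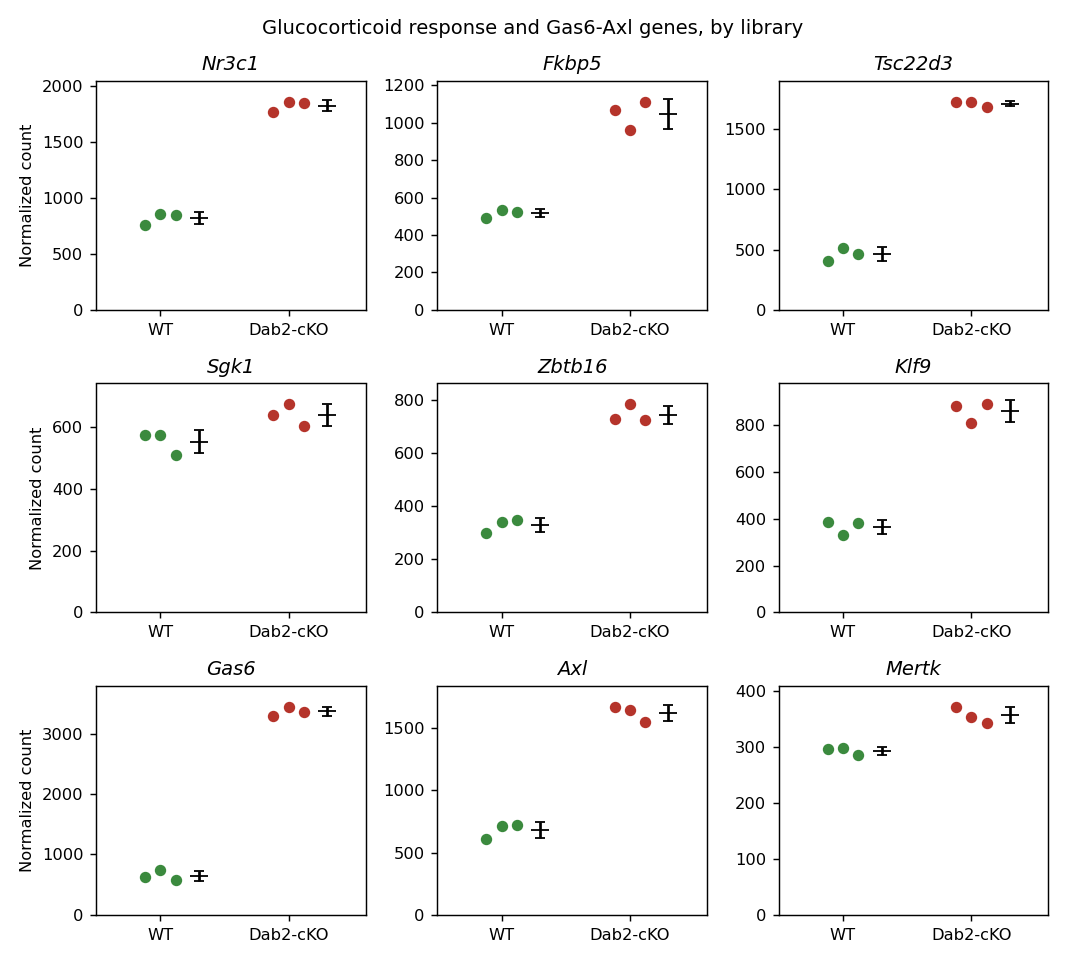
Normalized counts of the 9 genes (vertical axes, each starting at 0) in the 3 libraries labelled WT (green) and the 3 labelled Dab2-cKO (red), 1 point per library, with the mean and SD in black. In every panel the red points sit above the green ones, by a wide margin for Gas6 (647 against 3365) and by little for Sgk1 (552 against 638) and Mertk (294 against 357).

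Nr3c1, the glucocorticoid receptor gene on chromosome 18 (39543598 to 39652474, minus strand), had 757, 857 and 846 normalized counts in the WT libraries and 1765, 1855 and 1842 in the Dab2-cKO libraries. The 2 ranges were far apart, and the means of 820 ± 54.6 and 1821 ± 48.5 (SD, n = 3) gave a 2.22-fold rise (log2 fold change 1.15, SE 0.07, adjusted p = 9.41e-23 by edgeR). An annotated antisense lncRNA overlaps 14.8% of its exon bases, and whether the counting used strand is not given in the sources used here. Nr3c2, the mineralocorticoid receptor, which also binds corticosterone, rose as well, at a much lower level (84.9 ± 11.9 to 155 ± 26.7 normalized counts, log2 fold change 0.87, adjusted p = 1.05e-05 by edgeR).

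Most of the receptor's partners did not rise with it. The 15 listed were Nr3c2 and genes for hormone handling, chaperones and coregulators. In the libraries labelled Dab2-cKO, 2 were higher, Nr3c2 among them, 8 were lower and 5 did not pass. Of all genes tested, 16.8% were higher and 11.5% lower. The median log2 fold change of the 15 partners was -0.26. Scaling by library totals alone gave 1 higher and 14 lower, and upper-quartile scaling 1 and 10. Hsp90aa1, an inducible heat shock protein 90 that holds the receptor ready for hormone, was at 3380 ± 205 in WT and 1830 ± 147 in Dab2-cKO (log2 fold change -0.88). Hsp90ab1, the other heat shock protein 90 gene listed, did not pass, at 10881 ± 1148 and 10890.5 ± 140 (log2 fold change 0.001, adjusted p = 0.993 by edgeR). Per kb of exon Hsp90ab1 was the more abundant, at 2015 and 2016 against 734 and 398 for Hsp90aa1. Hsp90ab1 was named after its value was seen. Smarca4, the ATPase of a chromatin remodelling complex recruited by the receptor, fell by 0.61 on the log2 scale.

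Of the hormone-handling enzymes, Hsd11b1 had 19.1 and 18.2 normalized counts per kb of exon in WT and Dab2-cKO, and Hsd11b2 had 27.4 and 7.27; only the last lies within the background described with the levels per length. Hsd11b2, which inactivates corticosterone, fell from 50.9 ± 12.8 to 13.5 ± 6.10 normalized counts (log2 fold change -1.93, adjusted p = 2.84e-06 by edgeR). Hsd11b1, which regenerates the hormone, stood at 95.5 ± 19.5 and 90.9 ± 8.36, and its difference did not pass (log2 fold change -0.06, 95% interval -0.42 to 0.30).

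Tsc22d3 encodes GILZ, a leucine zipper protein that carries much of the anti-inflammatory action of glucocorticoids. It lies on chromosome X (139440091 to 139501408, minus strand) with no annotated gene over its exons. Its normalized counts were 404, 516 and 467 in WT and 1726, 1721 and 1686 in Dab2-cKO, which made it the response gene with the widest gap. The rise was 3.69-fold, with a log2 fold change of 1.88 (SE 0.08, 95% interval 1.73 to 2.04, adjusted p = 2.46e-32 by edgeR), larger than that of 98.6% of tested genes.

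Fkbp5 encodes FKBP51, a co-chaperone that lowers the receptor's affinity for hormone and so closes a negative feedback loop. From chromosome 17 (28618058 to 28737521, minus strand) it gave 491, 535 and 523 normalized counts in WT and 1067, 960 and 1110 in Dab2-cKO. The lowest Dab2-cKO library was well above the highest WT library, and the fold was 2.02 (log2 fold change 1.02, SE 0.08, adjusted p = 2.17e-18 by edgeR). Fkbp4, its paralog in the receptor complex that favours hormone binding, moved the other way, from 1037 to 813 normalized counts (log2 fold change -0.35, adjusted p = 0.000117 by edgeR); it was named here after its value was seen.

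Zbtb16 and Klf9 are transcription factors that respond to glucocorticoids in many tissues, the former also known as PLZF and the latter a Krüppel-like factor tied to the circadian clock in keratinocytes. Zbtb16 (chromosome 9, 48563141 to 48748664, minus strand) stood at 301, 341 and 348 normalized counts in WT and at 728, 785 and 724 in Dab2-cKO. Klf9 (chromosome 19, 23118187 to 23148497, plus strand) stood at 386, 331 and 380 in WT and at 883, 808 and 888 in Dab2-cKO. In both genes the libraries of the 2 labels were well apart, with log2 fold changes of 1.17 (SE 0.09) for Zbtb16 and 1.23 (SE 0.08) for Klf9 and adjusted p of 4.01e-19 and 5.59e-21 by edgeR.

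Sgk1, a kinase that regulates ion channels and cell survival, was the response gene that moved least. It was the single member with the exact palindrome within 5000 bases of its start. Its normalized counts were 575, 573 and 508 in WT and 639, 673 and 603 in Dab2-cKO. The ranges did not overlap, but the lowest Dab2-cKO library was close to the highest WT library, and the log2 fold change of 0.21 (95% interval 0.05 to 0.38) barely passed at an adjusted p of 0.0471 by edgeR. The adjusted p missed the threshold in 10 of 14 alternatives, among them leaving out WT 3 (adjusted p = 0.289), Dab2-cKO 1 (0.13), Dab2-cKO 2 (0.286) or Dab2-cKO 3 (0.054), and scaling by library totals alone gave -0.22, called lower. Over the alternatives the adjusted p ran from 0.0139 to 0.557. Sgk1 lies on chromosome 10 (21758083 to 21875802, plus strand) and 14.4% of its exon bases are shared with lncRNAs on the other strand.

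**Figure D2:**
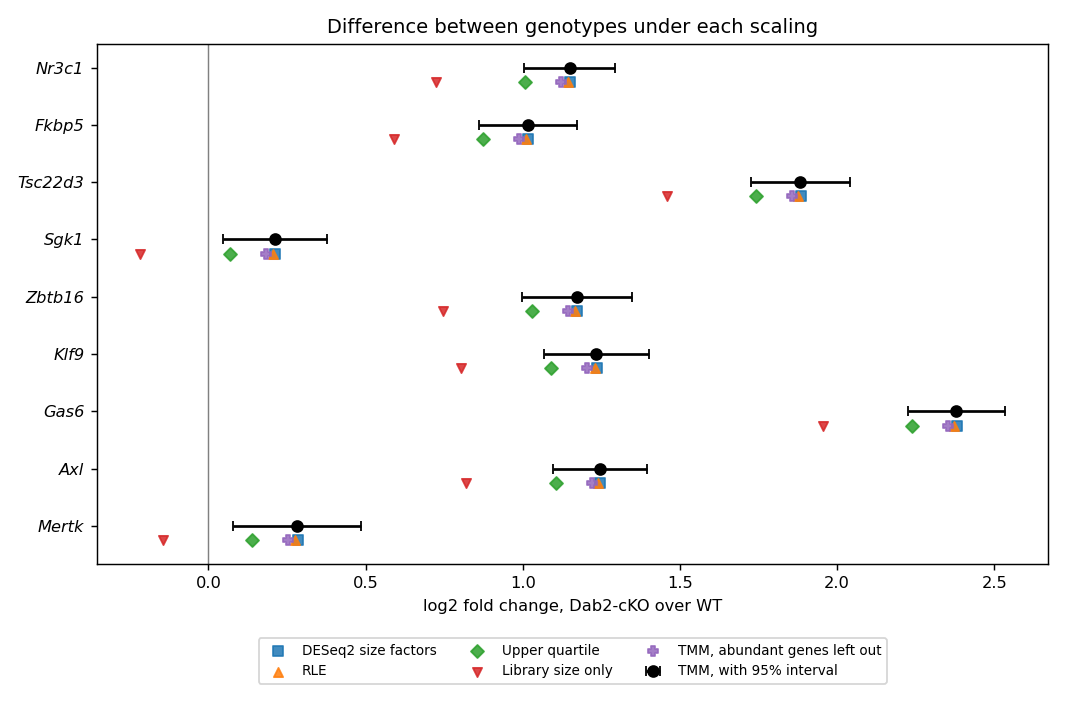
log2 fold change of each gene (horizontal axis, Dab2-cKO over WT) with TMM scaling and its 95% interval (black) and under 5 other scalings (coloured marks below each interval). Library size only moves every gene to the left by about the same amount and carries Sgk1 (-0.22) and Mertk (-0.15) below 0, while Gas6 stays at 1.95 or higher.

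The level of the receptor and of its response genes could be set against each other within a library, where scaling plays no part. These ratios and the other within-library ratios below were chosen after the data were seen. Their ranges and permutation p-values are therefore descriptive. Tsc22d3 counts were 53.4 to 60.3% of Nr3c1 counts in WT and 91.6 to 97.8% in Dab2-cKO. Sgk1 went the other way, from 60.1 to 75.9% in WT down to 32.7 to 36.3% in Dab2-cKO. Fkbp5 was at 61.8 to 64.9% in WT and 51.7 to 60.5% in Dab2-cKO. The ranges of these 3 genes did not overlap between the labels, and the exact permutation p of each was 0.1. Zbtb16 and Klf9 overlapped, at 39.7 to 41.1% and 39.3 to 42.3% for Zbtb16 (exact permutation p = 0.6) and at 38.7 to 51.0% and 43.5 to 50.03% for Klf9 (exact permutation p = 0.7).

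Other genes known to respond to glucocorticoids moved mostly upward. Of 20 listed, 14 were higher, 1 was lower and 5 did not pass, with a median log2 fold change of 0.59 (10 higher and 4 lower when scaled by library totals alone). Of all genes tested, 16.8% were higher and 11.5% lower. With only genes of a mean count of at least 50 kept, 14 of 19 listed genes were higher and 2 lower, against 4461 higher of all 14801. Dusp1, a phosphatase that shuts off MAP kinases, went from 159 ± 23.2 to 1390 ± 62.2 normalized counts (log2 fold change 3.12), and Pdk4, a kinase that turns cells from glucose to fat oxidation, from 117 ± 10.9 to 903 ± 43.6 (log2 fold change 2.95). Per1, a clock gene, Nfkbia, which encodes the inhibitor of NF-κB, and Errfi1, a brake on the EGF receptor, were also higher, with log2 fold changes of 1.21, 1.70 and 1.33; these 3 were named after their values were seen. Mt1, a metallothionein, was the gene called lower (515 ± 24.8 to 400 ± 18.5, log2 fold change -0.36). Several genes of this list also respond to cell dissociation. The summed normalized count of the dissociation stress list went from 4083 to 4619 in WT to 11144 to 11577 in Dab2-cKO. The sums of the skeletal muscle and adipocyte marker lists also rose, 5.27-fold and 2.22-fold. The part of handling or of cell composition in the differences of these genes, Pdk4 among them, was not tested.

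Gas6, the ligand, changed most among the 9 genes. Its counts before scaling were 566, 818 and 669 in WT and 3450, 2992 and 3047 in Dab2-cKO, and its normalized counts 630, 738 and 572 against 3290, 3443 and 3363. The mean rose 5.20-fold, from 647 ± 84.7 to 3365 ± 76.4 (log2 fold change 2.38, SE 0.08, 95% interval 2.22 to 2.53, adjusted p = 1.96e-38 by edgeR), more than in 99.4% of tested genes. Gas6 lies on chromosome 8 (13515371 to 13544824, minus strand), and 2.8% of its exon bases overlap Tmem255b on the other strand.

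Axl, its high-affinity receptor, had 611, 718 and 719 normalized counts in WT and 1673, 1648 and 1548 in Dab2-cKO. The rise of 2.37-fold (log2 fold change 1.25, SE 0.07, adjusted p = 1.1e-23 by edgeR) was about that of Nr3c1 and smaller than that of the ligand. No annotated gene overlaps its exons on chromosome 7 (25456535 to 25488329, minus strand). Counts of Gas6 were 79.5 to 103% of those of Axl in WT and 197 to 217% in Dab2-cKO (exact permutation p = 0.1).

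Mertk, the TAM receptor best known from phagocytes, had 297, 298 and 285 normalized counts in WT and 372, 354 and 343 in Dab2-cKO. The ranges were separate but close, and the log2 fold change was 0.28 (SE 0.10, 95% interval 0.08 to 0.49, adjusted p = 0.028 by edgeR). The call was lost in 8 of 14 alternatives, among them leaving out WT 3 (adjusted p = 0.0948), Dab2-cKO 1 (0.141) or Dab2-cKO 2 (0.0778), with adjusted p values from 0.0287 to 0.311 over the alternatives. With library totals as the only scaling the value was -0.15. Mertk lies on chromosome 2 (128540729 to 128645080, plus strand). The count ratio of Axl to Mertk went from 206 to 252% in WT to 450 to 465% in Dab2-cKO.

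The remaining ligand and receptor of the family followed the same split. Pros1, which encodes protein S, rose from 307 ± 13.4 to 788 ± 46.4 normalized counts (log2 fold change 1.36, adjusted p = 2.56e-22 by edgeR), while Tyro3 stood at 212 ± 13.7 and 240 ± 27.4 with overlapping libraries (log2 fold change 0.17, 95% interval -0.06 to 0.41, adjusted p = 0.323 by edgeR). Both ligands and Axl therefore had log2 fold changes above 1, and Mertk and Tyro3 below 0.3. Of the 14 listed partners of the pathway, which include the vitamin K enzymes Ggcx and Vkorc1 and the kinases and adaptors downstream, 12 were higher and none lower, with a median log2 fold change of 0.59. The count called was 7 when libraries were scaled by totals alone, 6 higher and 1 lower. Of all genes tested, 16.8% were higher and 11.5% lower. With only genes of a mean count of at least 50 kept, 11 of 13 partners were higher and 1 lower, against 4461 higher of all 14801. Tns2, a tensin that binds Axl, was among those higher (295 ± 4.69 to 871 ± 59.1, log2 fold change 1.56).

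**Figure D3:**
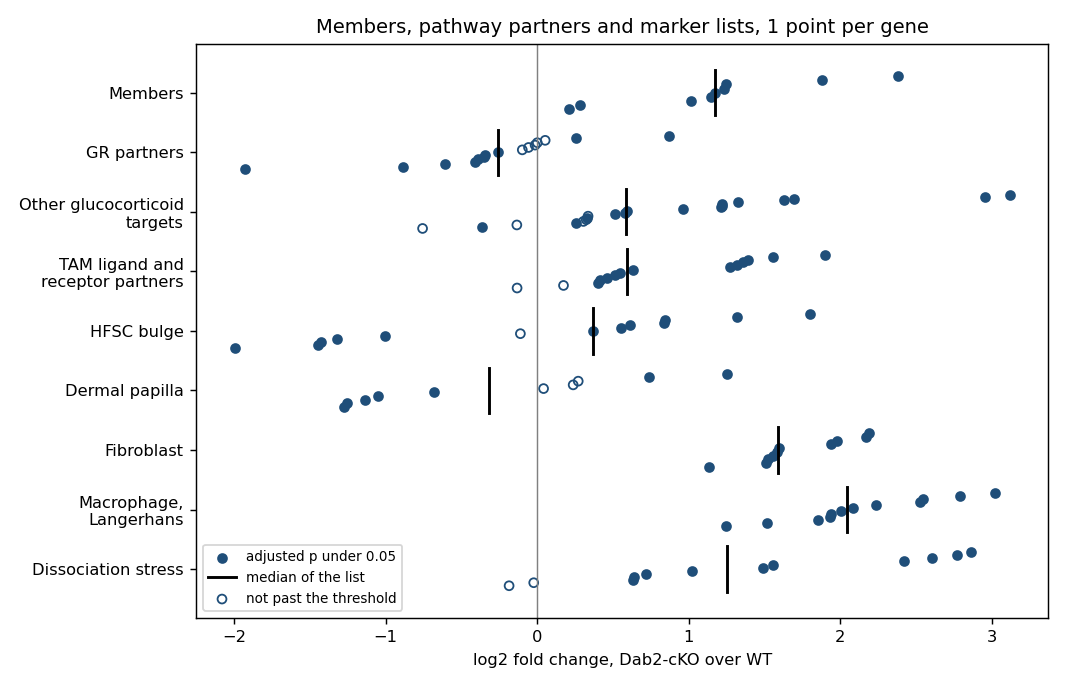
log2 fold change (horizontal axis, Dab2-cKO over WT) of every gene of the 9 members, of 3 partner lists (GR, glucocorticoid receptor) and of 5 marker lists, with called genes filled and the list median as a bar. The members lie to the right of 0 with a median of 1.17, the receptor's partners lie mostly to the left (-0.26), and the fibroblast (1.59) and macrophage (2.04) lists lie further right than most members.

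Gas6, Axl and Mertk are also transcribed in other skin cells, and markers of those cells moved with them. The summed normalized count of the 10 fibroblast genes was 105304 to 127363 in WT and 367266 to 387289 in Dab2-cKO, with a median log2 fold change of 1.59. That of the 12 macrophage and Langerhans cell genes was 2258 to 2477 in WT and 11136 to 11529 in Dab2-cKO, with a median of 2.04. Col1a1 led the first list (46086 and 135934 normalized counts in the 2 groups) and Cd74 the second (726 and 3422). All 10 fibroblast genes lay above the background described with the levels per length in both groups. Of the 12 macrophage and Langerhans cell genes, 10 did so in WT and 12 in Dab2-cKO. The dermal papilla list, the compartment in which Gas6 is best known, went the other way, from 1677 to 1752 in WT to 1018 to 1132 in Dab2-cKO, with 2 of 10 genes higher and 5 lower. Above the same background lay 7 of its 10 genes in WT and 8 in Dab2-cKO.

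Set against these lists within each library, the 3 genes parted. Gas6 counts were 0.491 to 0.598% of the fibroblast sum in WT and 0.889 to 0.896% in Dab2-cKO, whereas Axl went from 0.564 to 0.618% down to 0.412 to 0.455%, and Mertk from 0.234 to 0.282% down to 0.0912 to 0.101%. Against the macrophage sum, Gas6 overlapped between the labels (24.3 to 29.8% and 29.2 to 30.1%, exact permutation p = 0.3). Axl was 27.1 to 30.6% of that sum in WT and 13.4 to 15.02% in Dab2-cKO, and Mertk 12.03 to 13.2% and 2.98 to 3.34%. The ratio of Gas6 to the fibroblast sum was thus higher under the Dab2-cKO label, and the ratios of Axl and Mertk to either sum were lower (exact permutation p = 0.1 for each). Col1a1, Col1a2 and Col3a1 stood at 135934, 83394 and 132958 normalized counts in Dab2-cKO, so the fibroblast sum gives them most weight. Within the list, log2 fold changes ran from 1.13 for Col6a1 to 2.19 for Lum. The part of cell composition in the differences of the 9 genes was not tested.

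Nr3c1 and Tsc22d3 were also set against the bulge list, whose sum was 20416 to 23404 in WT and 33656 to 34484 in Dab2-cKO. Nr3c1 was 3.66 to 3.83% of that sum in WT and 5.24 to 5.47% in Dab2-cKO, and Tsc22d3 1.98 to 2.21% and 4.99 to 5.13%. Within that list Krt14 and Krt15 were higher and Sox9 and Lgr5 lower in Dab2-cKO, so the sum gives the abundant keratins most weight. The bulge sum rose 1.55-fold, against 2.22-fold for Nr3c1 and 3.69-fold for Tsc22d3. Sums of other lists rose more: adipocyte 2.22-fold, fibroblast 3.24-fold, endothelial 3.40-fold, macrophage and Langerhans cell 4.81-fold and skeletal muscle 5.27-fold. Against such lists neither gene would stand as it does against the bulge list.

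**Figure D4:**
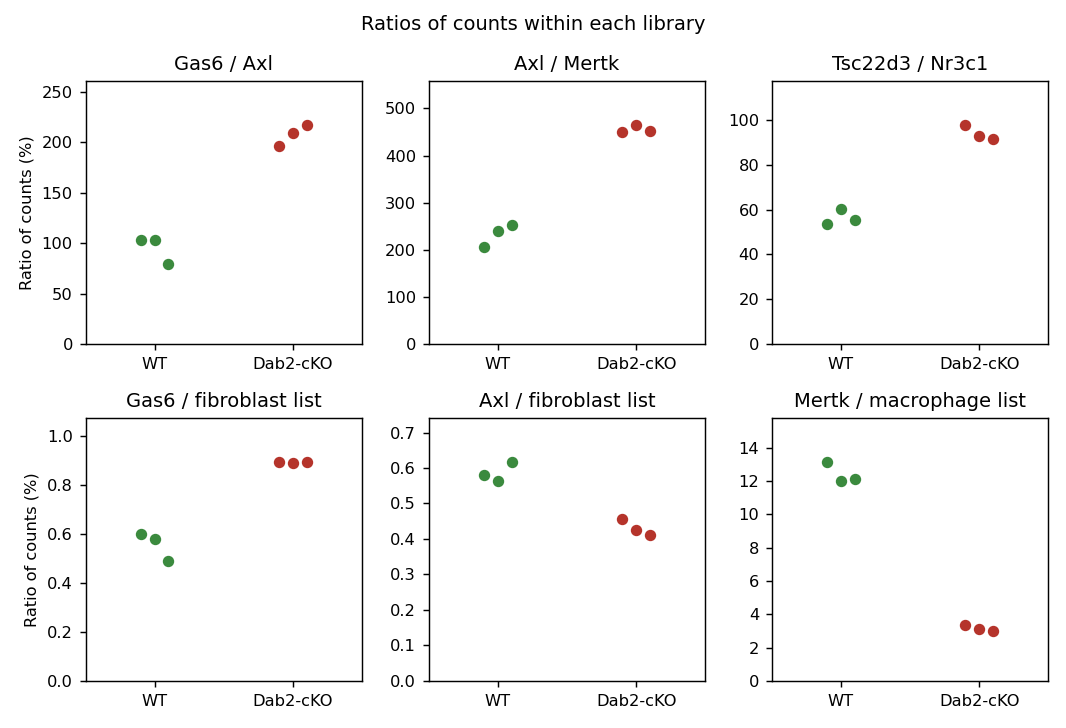
Counts of 1 gene as a percentage of those of another gene or of a summed marker list (vertical axes from 0), computed within each library and so free of scaling, 1 point per library. Gas6 over Axl and Tsc22d3 over Nr3c1 are higher in the red Dab2-cKO libraries (197 to 217% and 91.6 to 97.8%), Gas6 over the fibroblast list is higher too (0.889 to 0.896%), and Mertk over the macrophage list is lower (2.98 to 3.34%). The ratios were chosen after the data were seen.

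Levels of different genes were compared per kb of exon, with 1526 chemosensory receptor genes, which skin cells should not express, as background. The mean of each member in each genotype was above the 95th percentile of that background, which was 12.4 normalized counts per kb in WT and 11.8 in Dab2-cKO. In WT the order ran from Gas6 (118) and Nr3c1 (104), whose libraries overlapped, through Sgk1 (91.8), Tsc22d3 (74.7) and Axl (74.4), the last pair overlapping, to Mertk (61.0), Fkbp5 (46.7) and Klf9 (44.5), again overlapping, and Zbtb16 (35.1). In Dab2-cKO, Gas6 stood far above the rest at 612 normalized counts per kb, followed by Tsc22d3 (276), Nr3c1 (231) and Axl (177) with no overlap between neighbours. Sgk1 (106), Klf9 (105) and Fkbp5 (94.5) then overlapped in turn, and so did Zbtb16 (79.4) and Mertk (74.2) at the end. Tsc22d3 thus passed both Sgk1 and Nr3c1, and Mertk went from the sixth place to the last.

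**Figure D5:**
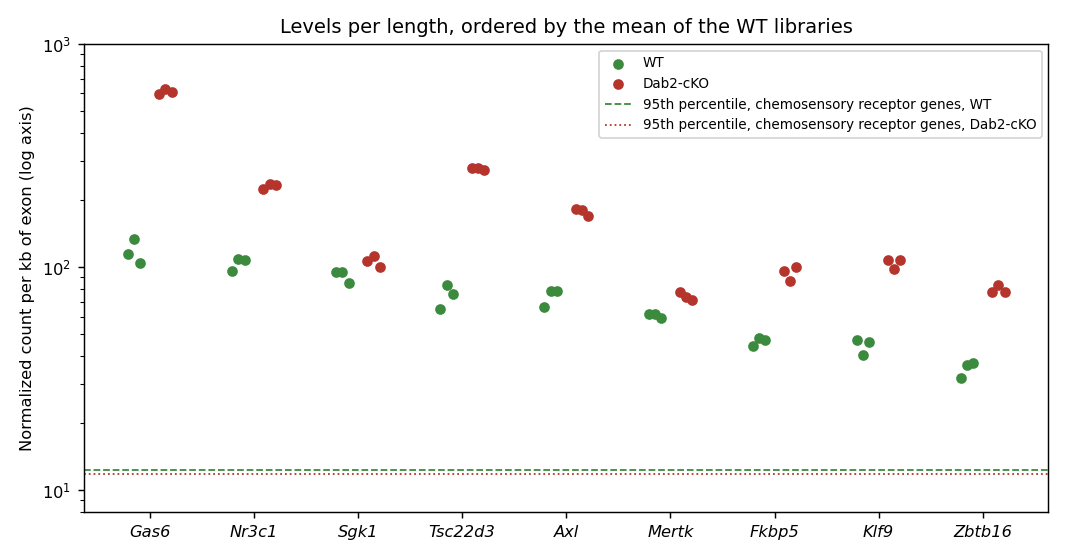
Normalized counts per kb of exon (vertical log axis) of the 9 genes in each library labelled WT (green) or Dab2-cKO (red), ordered by the WT mean, with the background limit (95th percentile over chemosensory receptor genes) as dashed and dotted lines at 12.4 and 11.8. All points lie above the lines, and Gas6 in Dab2-cKO (612) is the highest.

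The genes most like 3 of the members across the 6 libraries were found by the root mean square difference of centred log2 CPM among 10529 protein-coding genes. Nr3c1 was nearest to Fam102b (0.0236) and Itm2b (0.0260), Gas6 to Cyr61 (0.0497) and Sod3 (0.0542), and Axl to Cavin3 (0.0284) and Plod1 (0.0425). Among the 9 genes themselves, Nr3c1 and Zbtb16 were the closest pair (0.0366), followed by Zbtb16 and Axl (0.0570) and by Sgk1 and Mertk (0.0675), the pair with the smallest differences between the labels. These distances mostly measure the size of the difference between the 2 labels, which all 6 libraries share.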

How the data were processed

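The authors deposited featureCounts gene counts (unnormalized) of 3 WT and 3 Dab2-cKO libraries on GRCm39; their processing notes list FastQC 0.11.9, fastp 0.23.4, HISAT2 2.2.1, SAMtools 1.6, featureCounts 2.0.6 and DESeq2 1.42.0. Libraries came from 5 ng of total RNA with a stranded pico-input kit; the strand setting and annotation release are not given in the sources used here. A deposited table of the authors' fold changes and p-values was not used. Columns headed FL-FL were taken as Dab2-cKO because the labels equate that genotype with Dab2 Fl/Fl, although both genotypes carry floxed alleles. Counts were tested with edgeR 4.0.16 in R 4.3.3 (quasi-likelihood, robust, TMM, filterByExpr, Benjamini-Hochberg over 32149 genes, threshold 0.05), which was also tested on simulated data. Gene positions, overlaps and exon lengths are from GENCODE, and sequences are from the GRCm39 genome. Named genes were every member, Dab2, Cd34, Itga6, Nr3c2, Hsd11b1, Hsd11b2, Tyro3 and Pros1, from each partner list the 2 largest called rises and falls with a mean of at least 100 normalized counts, from a marker list its most abundant gene, and the 2 genes nearest in pattern; others are said to be chosen later, and 2 genes that the rule names are not reported here. The members and lists were chosen with earlier results of these data known. Krt15, Sox9 and Nfatc1 were set beside the Dab2 counts because the paper reports their staining. Alternatives were DESeq2, other scalings and filters, a replicate block and leaving out each library. At 7040032 to 11696457 counts per library, intervals cover the spread between libraries only.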

Additional observations from a re-analysis of the deposited data

How the results depend on the processing

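Nr3c1, Fkbp5, Tsc22d3, Zbtb16, Klf9, Gas6 and Axl kept their direction and their call in all 14 alternatives; over these, Gas6 ranged from 1.95 to 2.50 and Nr3c1 from 0.72 to 1.19 on the log2 scale. Sgk1 and Mertk did not keep theirs. Scaling by library totals alone turned both, to -0.22 (adjusted p = 0.0139, edgeR) and -0.15 (0.229), since it moved the median of all genes to -0.45; relative to that median both stayed above 0, at 0.24 and 0.31. It also called 13854 genes, 2686 higher and 11168 lower, against 5387 and 3682 with TMM, and 7 of the 14 TAM partners. The share of calls that were higher was 59.4% with TMM, 19.4% with library totals and 43.5% with upper-quartile scaling (5561 lower; median of all genes -0.17). DESeq2 called 7424 genes. Members called numbered 7 to 9 over all alternatives (with library totals 8, of which Sgk1 was lower), and 7 to 9 with 1 library left out, when 7996 to 8546 genes were called. The replicate block called 8967 genes and 9 members. No label says that replicate numbers pair animals. Deviations of same-numbered libraries correlated at 0.0722, -0.0173 and 0.058, and those of differently numbered libraries at -0.0982 to 0.0513. With 3 libraries per genotype these values cannot decide whether the numbers were a pairing. Depth left Mertk the least precise: it had the fewest counts of the members, 267 to 390 per library, and the largest SE, 0.10.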
